A study of Mus musculus with 5 samples.

Results

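The interferon regulatory factors IRF4 and IRF8 were both found at 359 places of the mouse genome in B cells cultured with lipopolysaccharide (LPS), 13.3% of the 2700 places that the peak lists of these cultures hold on chromosomes 1 to 19 and X. The places were chosen by the peak calls themselves. A place is a set of overlapping peaks, and it was kept where a peak of an IRF4 list overlapped a peak of an IRF8 list by at least 1 bp, whatever the culture time. Of the other places, 1558 were of IRF4 alone and 783 of IRF8 alone.

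The binding sites were mapped by chromatin immunoprecipitation and sequencing (ChIP-seq) in wild-type C57BL/6 mice. Naive spleen B cells were cultured with LPS at 10 μg/ml, and IRF4 (antibody M-17) and IRF8 (antibody C-19) were each mapped at 48 h and 72 h of culture. A further IRF8 map came from germinal centre (GC) B cells sorted on day 13 after immunisation with NP-KLH, a hapten coupled to a carrier protein. Each of these 5 groups was 1 library, so values carry no replicate error, differences between groups could not be checked on replicates, and p-values compare regions of these libraries, not conditions. How many mice gave the cells is not given in the sources used here, and peak lists hold no expression values against which the cell type could be checked. The LPS libraries held 3065426 to 4375858 tags (sequenced fragments), of which 0.18% to 0.82% lay in peaks. The IRF8 72 h list names a second replicate as its source, and for the GC library no depth is known.

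IRF4 and IRF8 are close relatives that bind DNA weakly by themselves. On the composite ETS-IRF element (EICE) they bind beside the ETS factors PU.1 or SPIB, and on composite AP-1-IRF elements beside AP-1 and BATF proteins. The interferon-stimulated response element (ISRE) carries repeated IRF half-sites. In activated B cells IRF4 drives plasma cell differentiation, and IRF8 is known for roles in keeping B cells and germinal centre cells in their state.

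The sequences below show the 3 kinds of element at places bound by both factors. They were read from the NCBIM37 genome, which is mm9, and are written 5′ to 3′ along the strand that holds the element, with the element in capitals. The searched words, on both strands, were GGAANNGAAA for the EICE, GAAANNGAAA for the ISRE core and TGACTCA or TGAGTCA for AP-1. The first 3 lines hold an EICE with the inner bases CT, the next 4 an EICE with GT and the next 2 an EICE with CC. They are followed by 2 places with an ISRE core and by 3 with an AP-1 site.
Pax5 intron, chr4:44684053-44684102, plus strand: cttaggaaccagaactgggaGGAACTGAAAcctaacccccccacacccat
Myc, downstream, chr15:61831305-61831354, plus strand: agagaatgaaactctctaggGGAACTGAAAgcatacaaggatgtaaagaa
Psmb9, downstream of its start, chr17:34317644-34317693, minus strand: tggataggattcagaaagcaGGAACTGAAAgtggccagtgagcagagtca
Bach2 intron, chr4:32445735-32445784, minus strand: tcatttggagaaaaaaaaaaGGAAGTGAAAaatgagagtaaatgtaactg
Gm9034, upstream, chr10:43538541-43538590, minus strand: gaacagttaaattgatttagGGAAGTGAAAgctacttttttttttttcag
H2-DMb2 promoter, chr17:34280105-34280154, plus strand: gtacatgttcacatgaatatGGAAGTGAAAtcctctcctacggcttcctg
Atf3, upstream, chr1:193021939-193021988, plus strand: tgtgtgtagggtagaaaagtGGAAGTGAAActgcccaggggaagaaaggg
Inpp5d intron, chr1:89547439-89547488, minus strand: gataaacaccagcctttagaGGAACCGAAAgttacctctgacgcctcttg
Irf4, upstream, chr13:30820221-30820270, minus strand: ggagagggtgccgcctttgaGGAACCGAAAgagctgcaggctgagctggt
Stoml1, downstream of its start, chr9:58119109-58119158, plus strand: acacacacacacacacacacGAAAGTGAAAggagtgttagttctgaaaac
Il2rb, upstream, chr15:78340744-78340793, minus strand: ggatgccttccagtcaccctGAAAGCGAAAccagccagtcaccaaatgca
Grap, upstream, chr11:61458213-61458259, plus strand: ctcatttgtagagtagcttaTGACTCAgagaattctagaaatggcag
Enpp6, upstream, chr8:48026829-48026875, plus strand: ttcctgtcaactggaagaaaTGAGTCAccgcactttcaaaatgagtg
Tcfeb intron, chr17:47905757-47905803, plus strand: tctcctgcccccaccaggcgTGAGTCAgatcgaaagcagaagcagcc

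The IRF8 72 h list took part in nearly every place: it held 334 of the 359 (93.0%), the IRF4 48 h list 298 (83%), the IRF4 72 h list 265 (73.8%) and the IRF8 48 h list 129 (35.9%). The places made up 57.1% of the placed peaks of the short IRF8 48 h list, 31.9% of the IRF8 72 h list, 29.9% of the IRF4 72 h list and 19.1% of the IRF4 48 h list. All 4 lists held 77 places (21.4%), 3 lists held 154 and 2 lists held 128. The commonest combination was both IRF4 lists with IRF8 at 72 h (114 places), and the 66 places of IRF4 at 48 h with IRF8 at 72 h were found for the factors at different times only. A place outside a list had no peak called there, which is not a count of 0. The lowest peaks carried 23.6 and 18.6 normalised tags in the IRF4 lists of 48 h and 72 h, and 20.6 and 22.8 in those of IRF8. A normalised tag is 1 tag scaled by the authors to a library of 10000000.

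The overlaps were nearly complete. The largest overlap between an IRF4 and an IRF8 peak of 500 bp was 481 bp in the median place, and it fell under 50 bp in 2 places. At 72 h the centres of the 2 factors lay 25 bp apart in the median of 249 pairs, with 74.7% of pairs within 50 bp, and at 48 h 28 bp apart in 117 pairs. Just inside the rule, a place near AB041803 overlapped by 36 bp (41.2 IRF4 tags at 48 h and 29.4 IRF8 tags at 72 h) and one near Hmha1 by 48 bp (38.3 and 32.6 tags). Just outside it, 3 IRF4 peaks ended within 500 bp of an IRF8 peak, the nearest after a gap of 19 bp.

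Places bound by both factors carried more tags than the rest, a difference that the peak calls used by the rule can set by themselves and that was not tested. The highest peak of a place had a median of 50 normalised tags, against 34.5 at places of IRF4 alone and 29.4 at places of IRF8 alone. Among the 359, the medians were 47.1 tags for IRF4 at 48 h, 39.8 for IRF4 at 72 h, 29.7 for IRF8 at 48 h and 39.1 for IRF8 at 72 h, each over the places that the list held. At 72 h the factors were at a like level: over 249 places the median log2 ratio of IRF4 over IRF8 tags was -0.03 (quartiles -0.30 and 0.33), with IRF4 higher at 114 places and IRF8 at 135. At 48 h IRF4 was higher at 97 of 118 places, with a median log2 ratio of 0.46 (quartiles 0.15 and 0.99). It was also higher at 26 of the 31 multi-copy places among them, with a median of 0.31. The share of tags in peaks was 0.82% for IRF4 and 0.18% for IRF8 at 48 h, and 0.45% and 0.52% at 72 h. With 1 library per factor and time, library, antibody and factor cannot be told apart. Spearman's rho between the factors was 0.48 over the 249 places at 72 h and 0.33 over the 212 of them in single-copy sequence. Those points share libraries, depth and the limit of the peak calls, so the rho values are descriptions.

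**Figure D1:**
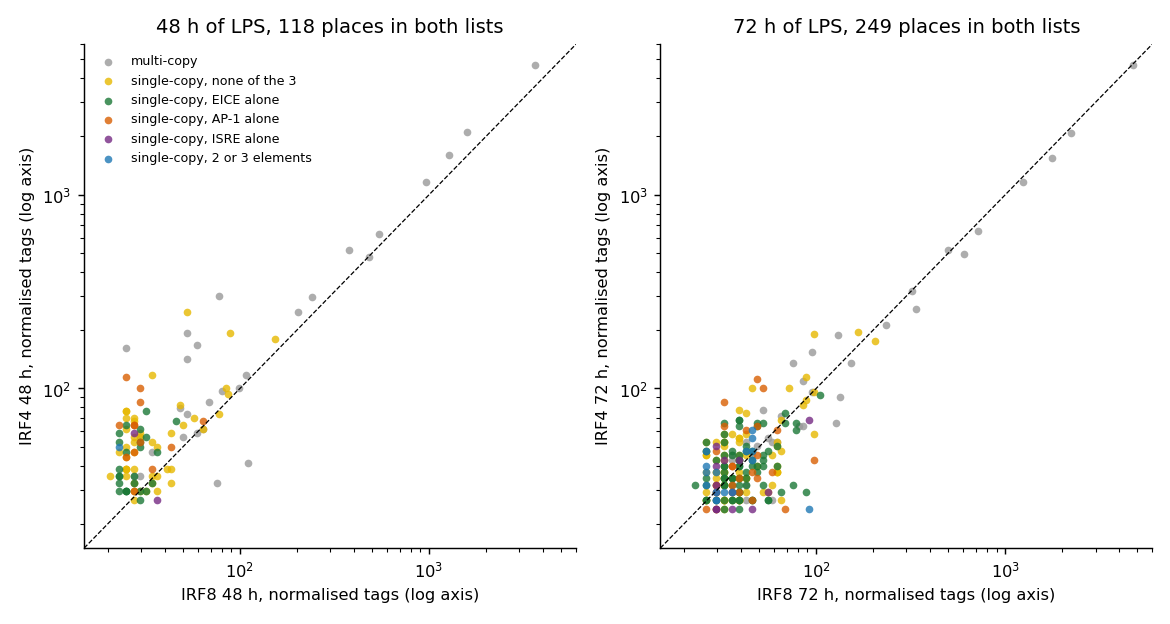
Normalised tags of IRF4 (y axis) and IRF8 (x axis), both on log axes, at places held by both lists of a culture time (118 places at 48 h and 249 at 72 h). Each point is 1 place coloured by sequence class, and the dashed line marks equal tags: at 48 h 97 points lie above it, at 72 h 114, and the multi-copy places in grey reach the highest values at both times.

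The places with the most tags lay in repeated sequence and held none of the 3 elements. A place was called multi-copy when the median 24-base word around its centre was found more than 1 time in the genome. Of the 10 places with the most tags, 9 were multi-copy, none held an EICE, ISRE core or AP-1 site and none lay in the GC list, and these 10 carried 49.2% of the tags of all 359 places. The first was next to the predicted gene Gm10800 (chromosome 2, 98507035 to 98507548, in a coding exon of the annotation; median word found 46 times). It carried 4651.2 IRF4 tags at 48 h, 4684.0 at 72 h, 3631.3 IRF8 tags at 48 h and 4710.6 at 72 h. Its neighbour near Gm10801 (98502488 to 98503098) carried 2110.7, 2071.2, 1579.1 and 2237.9 tags in that order. A place upstream of Gm5614 (chromosome 9, 35112709 to 35113271) carried 1595.6, 1540.1, 1268.3 and 1761.6 tags. In each of these the IRF8 48 h library was the lowest and the other 3 lay close together. The remaining named ones, near 1700012B15Rik on chromosome 12 (3109721 to 3110226) and Gm10722 on chromosome 9 (3000159 to 3000705), had 959.8 to 1242.9 and 546.2 to 717.7 tags with the same library lowest.

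In all, 46 of the 359 places were multi-copy (12.8%, exact 95% interval 9.54 to 16.7), where all LPS places together gave 7.04%. The share was 2.5% at places of IRF4 alone (39 of 1558) and 13.4% at places of IRF8 alone (105 of 783). The difference from IRF4 alone passed Fisher's exact test (two-sided, odds ratio 5.72, adjusted p = 2.56e-13 over the 12 comparisons of this kind), and that from IRF8 alone did not (odds ratio 0.949, adjusted p = 0.851). With the 48 h lists alone the shares were 23.9% at places of both and 2.91% at those of IRF4 alone (Fisher's exact test, adjusted p = 3.35e-14). Among places of all 4 lists 27 of 77 were multi-copy, but 10 of 154 places of 3 lists and 9 of 128 places of 2 lists. Only 2 of the 46 lay in the GC list, against 98 of the 313 single-copy places.

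Several single-copy places without an element also carried many tags in all 4 LPS lists, some at even levels and some not. A place 35.5 kb upstream of Pak3, which encodes a kinase (chromosome X, 139917350 to 139917852), carried 179.6 and 175.3 IRF4 tags and 153.1 and 205.5 IRF8 tags at 48 h and 72 h. One in an intron of Cdk5rap2 (chromosome 4, 70038966 to 70039472) carried 100.1, 82.3, 84.6 and 84.8 tags in that order. Near Axin2, 68.3 kb from its start (chromosome 11, 108872901 to 108873493), the values were 194.3, 196.5, 89.1 and 166.4 tags. In an intron of Cdk8, a kinase of the Mediator complex (chromosome 5, 147072470 to 147073002), they were 247.3, 191.2, 52.6 and 97.9 tags, so there IRF4 was above IRF8 at both times. A place in an intron of 4930468A15Rik on chromosome X carried 73.6, 114.2, 77.7 and 88.1 tags, and one near Vmn1r238 94.2, 95.6, 86.8 and 97.9. The place nearest to Samd9l, 184 kb from its start (chromosome 6, 3151246 to 3151758), had 117.8, 100.9, 34.3 and 71.8 tags. It and the Vmn1r238 place (chromosome 18, 3005604 to 3006115) lie within the first 3.5 Mb of their chromosomes. In that stretch 8 of 13 places bound by both were multi-copy. Copies were counted in the assembled genome, so copies missing from the assembly would not be seen. Of the 10 single-copy places with the most tags, 7 held none of the 3 elements and none of those 7 was in the GC list, while the other 3, near Grap, Enpp6 and Pax5, held an element and all lay in the GC list.

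Over the 77 places of all 4 lists, the highest list exceeded the lowest 1.42-fold in the median of 27 multi-copy places, 1.81-fold in that of 23 single-copy places with none of the 3 elements, and 2.09-fold in that of 27 single-copy places with at least 1. IRF8 tags were higher at 72 h than at 48 h at all 27 of the last group, with a median log2 ratio of 0.79 (quartiles 0.70 and 0.96). At the 23 places with no element the median was 0.38 (0.18 to 0.81), and at the 27 multi-copy places 0.37 (0.25 to 0.49). IRF4 tags moved less between the times, with medians of -0.14, -0.22 and -0.03 in these groups. These ratios compare single libraries, and the IRF8 48 h library had the smallest share of tags in peaks (0.18%). In every LPS list median tags fell over the 3 groups in the order given first, as with 141.3, 61.8 and 47.1 for IRF4 at 48 h. A ratio of highest to lowest list widens with counting error at lower tags. Sequence class and tag level therefore cannot be told apart here.

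**Figure D2:**
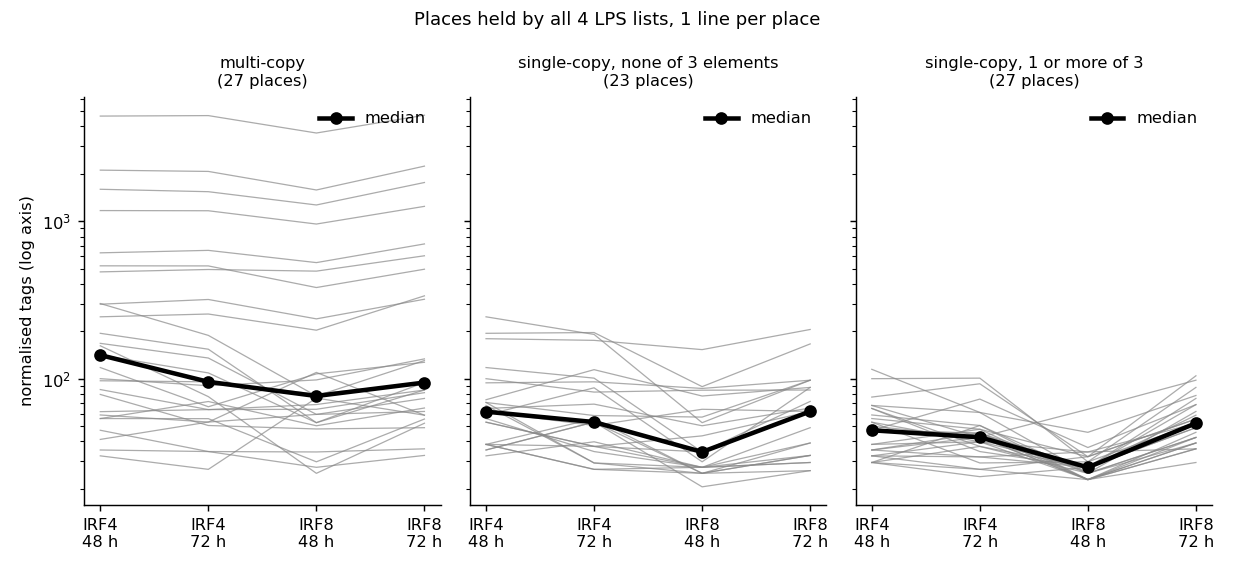
Normalised tags (log axis) of the 77 places held by all 4 LPS lists, 1 grey line per place and the median in black, in 3 groups by sequence. The 27 multi-copy places reach 4710.6 tags, and the highest lines there run nearly level. In each of the 3 groups the median is lowest in the IRF8 48 h list, at 77.7, 34.3 and 27.4 tags.

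The ETS-IRF element was more frequent where both factors were bound. It lay within 100 bp of the centre at 118 of 359 places (32.9%, exact 95% interval 28 to 38.0), where it lay at 16.3% of all LPS places and in 2.19% of all genome windows of that length. At places of IRF4 alone it was found in 13.0% (203 of 1558, 11.4 to 14.8) and at places of IRF8 alone in 15.3% (120 of 783, 12.9 to 18). Against IRF4 alone the odds ratio was 3.27 (two-sided Fisher's exact test, adjusted p = 3.17e-16), and against IRF8 alone 2.71 (adjusted p = 1.35e-10), so both differences passed. The first was smaller with the 48 h lists alone, at 22.2% against 14% (Fisher's exact test, adjusted p = 0.0495), and against IRF4 places held at both times, at 32.9% against 22% (adjusted p = 0.00474). The second call ended without the weaker peaks: with peaks at or above the pooled median of 32.6 tags the shares were 31.1% and 24.7% (Fisher's exact test, adjusted p = 0.133), and against the 28 IRF8 places held at both times they were 32.9% and 28.6% (adjusted p = 0.834). With the 48 h lists alone they were 22.2% and 17.4% (Fisher's exact test, adjusted p = 0.543).

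AP-1 sites were intermediate. They lay at 50 places bound by both (13.9%, 10.5 to 17.9), against 28.2% of places of IRF4 alone and 5.24% of places of IRF8 alone. Over all LPS places the share was 19.6%, and over genome windows 3.12%. By Fisher's exact test the odds ratio was 0.412 against IRF4 alone (adjusted p = 1.44e-08) and 2.93 against IRF8 alone (adjusted p = 2.65e-06). With the 72 h lists alone the first difference was smaller, at 13.7% against 20.1% (Fisher's exact test, adjusted p = 0.0494). The second call ended with the 48 h lists alone, where the shares were 12% and 6.42% (Fisher's exact test, adjusted p = 0.299), and against the 28 IRF8 places of both times, where they were 13.9% and 7.14% (adjusted p = 0.482). A direct joint element, the word GAAA right before an AP-1 site, lay at 7 places bound by both (1.95%). It lay at 51 of IRF4 alone (3.27%) and at none of 783 of IRF8 alone. Its share was 2.15% over all LPS places and 0.0522% over genome windows.

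The ISRE core lay at 31 places bound by both (8.64%, 5.94 to 12), at 5.13% of places of IRF4 alone and at 12.5% of those of IRF8 alone, with 7.74% over all LPS places and 3.31% over genome windows. By Fisher's exact test the difference from IRF4 alone passed at an adjusted p = 0.0247 (odds ratio 1.75), whereas that from IRF8 alone, with an odds ratio of 0.661, missed it at an adjusted p = 0.0749. The difference from IRF4 alone did not keep its direction across settings. That from IRF8 alone kept its direction in every setting, but passed the threshold only in some. With peaks at or above the pooled median the shares were 4.37% at places of both, 5.24% at those of IRF4 alone and 19.0% at those of IRF8 alone, so the order against IRF4 turned and the difference from IRF8 passed (Fisher's exact test, adjusted p = 0.724 and 6.30e-07). Among single-copy places bound by both, the ISRE core was found in 16 of 119 places of 2 lists (13.4%), 11 of 144 of 3 lists (7.64%) and 1 of 50 of all 4 lists (2%), while the EICE share was 36.1%, 38.9% and 36% in the same order.

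**Figure D3:**
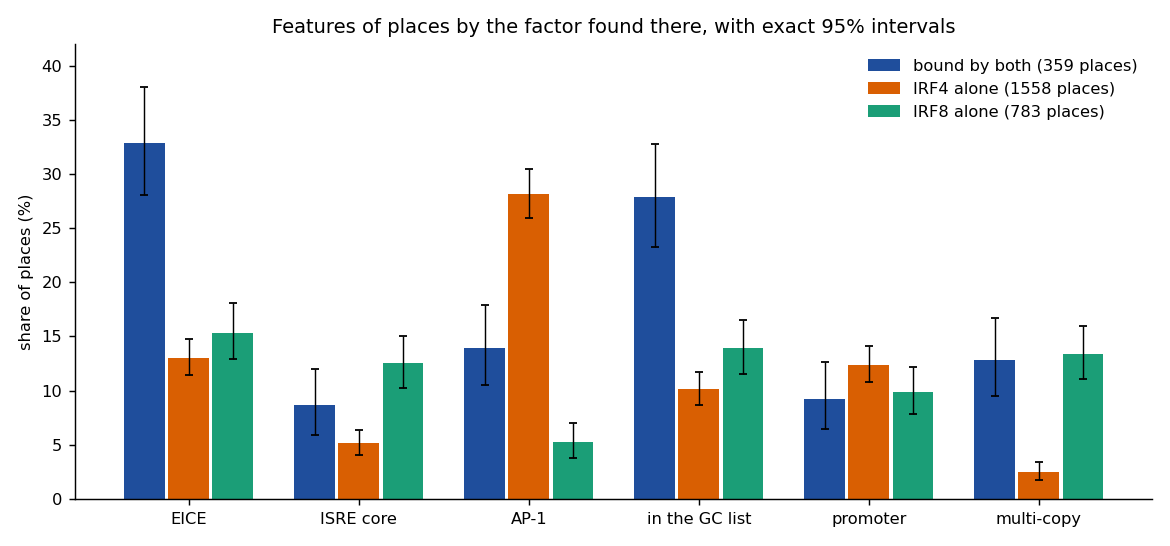
Share of places (%) with each feature, for 359 places bound by both factors, 1558 of IRF4 alone and 783 of IRF8 alone; bars start at 0 and error bars are exact 95% binomial intervals, which cover counting error only. The EICE and the GC list stand higher at places bound by both (32.9% and 27.9%) than in either other class, AP-1 lies between the other classes, and the promoter intervals overlap.

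The elements lay close to the peak centres. In the 313 single-copy places bound by both, the nearest EICE was a median of 19.5 bp from the centre (117 places), with 57.3% within 25 bp. The medians were 19.5 bp for the ISRE core (28 places) and 23 bp for AP-1 (48 places). At places of IRF4 alone they were 25.5, 40 and 24 bp, and at those of IRF8 alone 18.5, 24.5 and 33 bp. The elements rarely met: 9 of the 313 places held both an EICE and an AP-1 site, 7 an EICE and an ISRE core, 5 an ISRE core and an AP-1 site, and 1, at Gbp3, all 3. None of the 3 was present at 140 of the 313 (44.7%). The word GAAA followed by 4 bases and then an AP-1 site lay at 2 of the 359 places. It lay at 5 of the 1558 of IRF4 alone and none of the 783 of IRF8 alone. The reverse order, with GAAA 4 bases after an AP-1 site as in the Tcfeb sequence above, was not searched for. These counts therefore do not cover all spaced pairs of GAAA and AP-1. The other words searched were GAGGAAGT, a PU.1-type ETS site, at 40 of the 359 places (11.1%, against 7.04% of all LPS places), and ATGCAAAT, the octamer bound by OCT2 and OCT1 in B cells, at 10 (2.79%, against 3.48%).

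**Figure D4:**
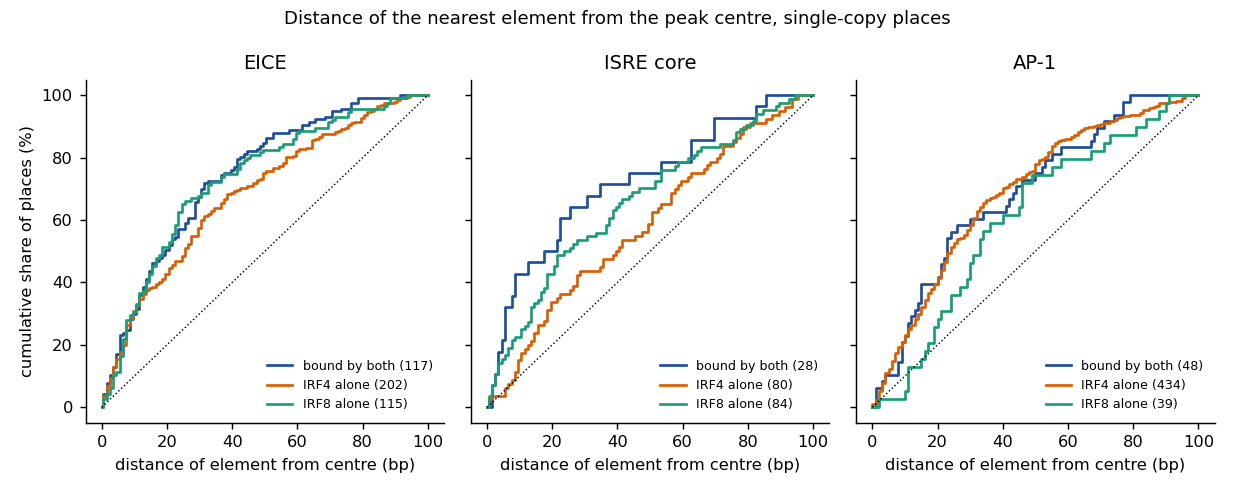
Cumulative share of single-copy places (%) by the distance of the nearest element from the peak centre (bp), for EICE, ISRE core and AP-1 in the 3 classes of places. The dotted line is an even spread over the window; the curves of places bound by both lie above it over most of the window, with medians of 19.5, 19.5 and 23 bp.

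The inner bases of the EICE differed between the classes, a reading chosen after the values were seen. At the 117 single-copy places bound by both that hold an EICE, the 2 free bases were CT in 39 (33.3%), as in the Pax5, Myc and Psmb9 sequences printed above, and GT in 37 (31.6%), as in those of Bach2 and H2-DMb2. At places of IRF4 alone they were CT in 46.0% and GT in 23.3% of 202 elements, and at places of IRF8 alone CT in 10.4% and GT in 52.2% of 115. In the whole genome CT made up 3.62% and GT 9.76% of 342429 matches. Among elements with either pair, CT was 51.3% at places bound by both (39 of 76, 39.6 to 63.0), 66.4% at places of IRF4 alone (93 of 140, 58.0 to 74.2) and 16.7% at places of IRF8 alone (12 of 72, 8.92 to 27.3). The share at places bound by both was below that of IRF4 alone by Fisher's exact test (two-sided, odds ratio 0.533, adjusted p = 0.0404 over these 2 comparisons) and above that of IRF8 alone (odds ratio 5.27, adjusted p = 2.32e-05). The first call ended with peaks at or above the pooled median and with the lists of either time alone (Fisher's exact test, adjusted p = 0.252 to 0.318). The second ended with the 48 h lists alone and against IRF8 places of both times (Fisher's exact test, adjusted p = 0.114 and 0.433, with 14 and 7 IRF8 elements), in the same direction.

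Within the places bound by both, the median balance of the factors at CT and GT elements differed in order between the times, with overlapping quartile ranges at both. At 48 h the median log2 ratio of IRF4 over IRF8 tags was 0.36 (quartiles 0.23 and 1.21) at 9 CT elements (IRF4 higher at 7). It was 0.62 (0.50 and 0.75) at 9 GT elements (IRF4 higher at 9). The CT range enclosed that of GT, so the order at 48 h is not settled. At 72 h the median log2 ratio of IRF4 over IRF8 tags was 0.03 (quartiles -0.21 and 0.45) at 31 CT elements and -0.18 (-0.42 and 0.22) at 26 GT elements. IRF4 was the higher factor at 17 of 31 CT places and 9 of 26 GT places. No test was made because these tags underlie the choice of places.

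The GC list held 100 of the 359 places (27.9%, exact 95% interval 23.3 to 32.8), and 13.6% of all LPS places. It held 10.1% of places of IRF4 alone (158 of 1558, 8.69 to 11.7) and 13.9% of those of IRF8 alone (109 of 783, 11.6 to 16.5). The odds ratio was 3.42 against IRF4 alone (Fisher's exact test, adjusted p = 2.04e-15) and 2.39 against IRF8 alone (adjusted p = 8.08e-08). Against IRF4 places held at both times the shares were 27.9% and 17.1% (Fisher's exact test, adjusted p = 0.00397). As for the EICE, the second call ended without the weaker peaks. At or above the pooled median the shares were 31.1% and 25.7% (Fisher's exact test, adjusted p = 0.191), with the 48 h lists alone 24.8% and 15.6% (adjusted p = 0.199). IRF8 places held at both times turned the order, with 39.3% of 28 in the GC list (Fisher's exact test, adjusted p = 0.266). A different caller made the GC intervals, whose median width was 1144.5 bp, so cell type and caller cannot be told apart.

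Presence in the GC list is given here by sequence class for single-copy places bound by both, with no test between the classes. It was 26.5% of 102 places with an EICE as the only element of the 3, 47.1% of 17 with an ISRE core, 40% of 35 with an AP-1 site, 47.4% of 19 with 2 or more elements and 28.6% of 140 with none. Of the 117 single-copy places with an EICE, whatever else they held, those with GT were in the GC list in 18 of 37 cases (48.6%, 31.9 to 65.6) and those with CT in 7 of 39 (17.9%, 7.54 to 33.5). That difference, also looked at after the values were seen, had an odds ratio of 4.33 and passed at an adjusted p = 0.0205 over 3 classes (Fisher's exact test). At places of IRF4 alone the shares were 17.0% of 47 and 10.8% of 93 (adjusted p = 0.448), and at those of IRF8 alone 30% of 60 and 41.7% of 12 (Fisher's exact test, adjusted p = 0.503). Whether the classes differ in this was not tested.

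At 72 h the median log2 ratio of IRF4 over IRF8 tags lay somewhat below 0 in each class of single-copy places with 1 element. It was -0.06 at 76 places with an EICE alone (IRF4 higher at 34), -0.12 at 23 with an AP-1 site alone (IRF4 higher at 10) and -0.30 at 13 with an ISRE core alone (IRF4 higher at 5). Single-copy places with none of the 3 elements had a median of -0.01 (IRF4 higher at 41 of 84). Multi-copy places had -0.06 (15 of 37), and single-copy places with 2 or more elements 0.12 (9 of 16). Values below 0 were thus not particular to places with an element. The places with the most tags in each class with 1 element, given next, are examples and differ in part from its median.

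A place in an intron of Pax5, which maintains B cell identity (chromosome 4, 44683770 to 44684314, 12.6 kb from a start), held an EICE and lay in all 5 lists. It carried 76.5 IRF4 tags at 48 h (95% Poisson interval 50 to 112), 92.9 (64.7 to 129) at 72 h, 32.0 IRF8 tags (17.5 to 53.7) at 48 h and 104.4 (71.4 to 147) at 72 h. The IRF8 value at 48 h was the lowest, and its interval overlaps that of IRF4 at 48 h but not those of the 72 h libraries. In a Bach2 intron (chromosome 4, 32445513 to 32446040) the EICE place carried 120.7 IRF4 tags (86.6 to 164) at 48 h and 66.4 (43.0 to 98.0) at 72 h. There, 68.5 IRF8 tags stood at 72 h (42.4 to 105), and no IRF8 peak was called at 48 h. Bach2 encodes a repressor that restrains plasma cell differentiation. Another EICE place, 2.46 kb upstream of the predicted gene Gm9034 (chromosome 10, 43538301 to 43538835), carried 135.4 and 69.0 IRF4 tags at 48 h and 72 h and 39.1 IRF8 tags at 72 h.

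Of the 4 AP-1 places with the most tags, 3 had more IRF4 than IRF8 tags at 72 h, unlike the median of their class. At all 4 the 72 h Poisson intervals of IRF4 and IRF8 overlap, at Enpp6 only just (80.4 to 151 and 27.4 to 80.7). Upstream of Grap, an adaptor of lymphocyte signalling (chromosome 11, 61457965 to 61458477), 247.3 IRF4 tags at 48 h and 85.0 at 72 h stood beside 32.6 IRF8 tags at 72 h. Upstream of Enpp6, a phosphodiesterase gene (chromosome 8, 48026600 to 48027117), the values were 185.5, 111.5 and 48.9 tags in that order. Neither had an IRF8 peak at 48 h. At a place 26 kb upstream of Ezh2, the histone methyltransferase of the Polycomb complex (chromosome 6, 47571038 to 47571591), IRF4 carried 100.1 and 100.9 tags and IRF8 29.7 and 52.2 at 48 h and 72 h. The place at the start of Tcfeb, a regulator of lysosome genes (chromosome 17, 47905531 to 47906063, 406 bp upstream of the nearest start), went the other way at 72 h, with 67.7 and 42.5 IRF4 tags and 64.0 and 97.9 IRF8 tags. Grap, Enpp6 and Tcfeb lay in the GC list and Ezh2 did not.

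Other places of all 4 LPS lists and the GC list included an EICE place in an intron of Ndst1, a heparan sulfate enzyme gene, with 67.7 and 61.1 IRF4 tags and 45.7 and 78.3 IRF8 tags at 48 h and 72 h. A place 127 kb from the start of Lphn2, with none of the 3 elements, carried 53.0, 37.2, 34.3 and 62.0 tags in that order. IRF8 was higher at 72 h than at 48 h at both places, and IRF4 was lower.

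The ISRE places with the most tags had either factor higher, with overlapping Poisson intervals of IRF4 and IRF8 at the times both were called. The intergenic place 18.2 kb downstream of the Stoml1 start (chromosome 9, 58118875 to 58119475) carried 82.4 and 69.0 IRF4 tags and 91.3 IRF8 tags at 72 h. Its element follows a run of CA repeats. A place 15.3 kb upstream of Il2rb, the shared beta chain of the interleukin-2 and interleukin-15 receptors (chromosome 15, 78340496 to 78341089), carried 26.5 IRF4 tags at 48 h and 36.6 and 52.2 IRF8 tags at 48 h and 72 h, with no IRF4 peak at 72 h. In an intron of Ppa2, a pyrophosphatase gene (chromosome 3, 132995156 to 132995681) there were 79.5 and 39.8 IRF4 tags and 29.4 IRF8 tags at 72 h. The fourth, near Mrpl39 (chromosome 16, 84621519 to 84622034), carried 35.3 and 42.5 IRF4 tags and 39.1 IRF8 tags at 72 h. All but the Ppa2 place lay in the GC list.

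By position, 193 of the 359 places were intergenic (53.8%), 148 intronic, 11 in untranslated exon sequence and 7 in coding exons of GENCODE M1 protein-coding genes. The median distance to the nearest protein-coding start was 17819 bp. Promoter places, within 1000 bp of such a start, were 33 (9.19%, 6.41 to 12.7), where all LPS places gave 11.2%. The shares of 12.4% at places of IRF4 alone and 9.83% at places of IRF8 alone did not differ from it by Fisher's exact test (adjusted p = 0.122 and 0.851). Among single-copy places the share was 7.99% against 12.6% of IRF4 alone, which passed (Fisher's exact test, adjusted p = 0.0261). Among peaks at or above the pooled median it was 5.83% against 13.4% of IRF8 alone (Fisher's exact test, adjusted p = 0.00810), while with the 72 h lists alone the order turned, at 11.2% against 9.39% (adjusted p = 0.430).

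Within 50 kb, 285 places had a nearest protein-coding gene, 269 genes in all, which is 1.21% of the 22208 annotated ones. In the 10 gene lists, the count was 5 of 23 B lineage transcription factors, 4 of 27 B cell receptor signalling genes, and 2 each of 19 germinal centre and activation genes, 20 antigen presentation genes, 9 IRF family genes and 27 Toll-like receptor and NF-kappaB genes. It was 1 of 11 plasma cell genes, 1 of 33 interferon-induced genes, 1 of 14 AP-1 and BATF genes and none of 20 apoptosis genes. Places of IRF4 alone, which lay nearest to 1084 of the 22208 genes, had 13 of the 23 B lineage transcription factors and 5 of the 20 apoptosis genes. Those of IRF8 alone, nearest to 570 genes, had 5 and 2. The genes were chosen for their roles in B cells with earlier results known, so these counts are descriptions.

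Among the transcription factor genes, a second Bach2 place, 13.5 kb downstream of a start (chromosome 4, 32675144 to 32675657), carried 35.3 IRF4 tags at 48 h and 58.7 IRF8 tags at 72 h and held none of the 3 elements. An Ets1 intron (chromosome 9, 32459747 to 32460268) held an EICE and an AP-1 site, with 50 IRF4 tags at 48 h and 32.6 IRF8 tags at 72 h. Ets1 encodes an ETS factor of lymphocytes. The Id2 place, 47.6 kb upstream (chromosome 12, 25828280 to 25828787), was the only one of these with both factors at 48 h alone, with 53.0 IRF4 and 29.7 IRF8 tags. A Zbtb20 intron (chromosome 16, 43409121 to 43409669) lay in all 4 LPS lists at 38.3, 26.6, 27.4 and 32.6 tags, without an element. The plasma cell list had a place in a Zbtb32 intron, 1.36 kb upstream of the nearest start (chromosome 7, 31379067 to 31379637) with an ISRE core and an AP-1 site. Its 44.2 and 47.8 IRF4 tags and 45.7 IRF8 tags at 72 h were nearly equal.

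Of the receptor signalling genes beside Grap, an Inpp5d intron (chromosome 1, 89547194 to 89547722) held the EICE printed above and carried 70.7 and 45.1 IRF4 tags and 52.2 IRF8 tags at 72 h. Inpp5d encodes SHIP1, a lipid phosphatase that damps receptor signals. An intron of Pik3ap1, the adaptor between the receptor and phosphoinositide 3-kinase (chromosome 19, 41446797 to 41447306), carried 55.9 and 58.4 IRF4 tags and 29.7 IRF8 tags at 48 h. A Rasgrp3 intron (chromosome 17, 75871620 to 75872145) carried 64.8 and 47.8 IRF4 tags and 26.1 IRF8 tags at 72 h. IRF4 was higher than IRF8 at the times both were called in Pik3ap1 and Rasgrp3, and lower at 72 h in Inpp5d. The Poisson intervals of IRF4 and IRF8 overlap at each of these places.

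Both antigen presentation genes lie in the MHC region of chromosome 17, had an EICE and were found in all 4 LPS lists. At H2-DMb2, a chain of the peptide exchanger for class II molecules (34279816 to 34280387, 186 bp upstream of the start), IRF4 carried 35.3 and 42.5 tags and IRF8 22.9 and 39.1. At Psmb9, an immunoproteasome subunit gene (34317391 to 34317934), the values were 53.0, 39.8, 22.9 and 39.1 tags. The H2-DMb2 place, with a GT element, lay in the GC list, and the Psmb9 place, with a CT element, did not, though the CT place of Pax5 did. The IRF4 and IRF8 intervals overlap at H2-DMb2 and at Psmb9.

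Among the activation genes, the Myc place 12.3 kb downstream of the start (chromosome 15, 61831029 to 61831610) carried 64.8 IRF4 tags at 48 h and 25.1 and 35.9 IRF8 tags. Upstream of Cd83, an activation marker of B cells and dendritic cells, there were 2 places on chromosome 13. One (43856457 to 43856970) held an AP-1 site, lay in the GC list and carried 50 and 34.5 IRF4 tags and 43.4 IRF8 tags at 48 h. The other (43847593 to 43848182) carried 38.3 IRF4 tags at 48 h and 39.1 IRF8 tags at 72 h, with none of the 3 elements.

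The IRF genes themselves were near 3 places. Upstream of Irf4 by 20.8 kb (chromosome 13, 30819992 to 30820527) an EICE place carried 29.4 IRF4 tags at 48 h and 26.1 IRF8 tags at 72 h, near the lowest values that the lists hold. At Irf5, one place lay 297 bp upstream of the nearest start (chromosome 6, 29478735 to 29479482; 38.3 and 26.6 IRF4 tags and 25.1 IRF8 tags at 48 h). The other, with an EICE, lay 1.07 kb downstream (29486657 to 29487207; 29.4 tags for IRF4 at 48 h and for IRF8 at 72 h). None of the 3 was in the GC list.

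Tlr4, the receptor for LPS, had a place at its start (chromosome 4, 66488454 to 66489021) with 41.2 and 26.6 IRF4 tags and 39.1 IRF8 tags at 72 h, and one 15.1 kb into the gene with 29.4 tags for IRF4 at 48 h and IRF8 at 72 h. Neither held one of the 3 elements. In an intron of Nfkb1 (chromosome 3, 135328502 to 135329118) there were 61.8 and 39.8 IRF4 tags and 25.1 IRF8 tags at 48 h. Upstream of Atf3, a stress-induced factor of the AP-1 class (chromosome 1, 193021637 to 193022215), the EICE place lay in all 5 lists with 32.4, 26.6, 22.9 and 29.4 tags in the LPS libraries. The place at the start of Gbp3, an interferon-induced GTPase gene (chromosome 3, 142223218 to 142223719), was found at 72 h alone, with 39.8 IRF4 and 26.1 IRF8 tags, and lay in the GC list.

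**Figure D5:**
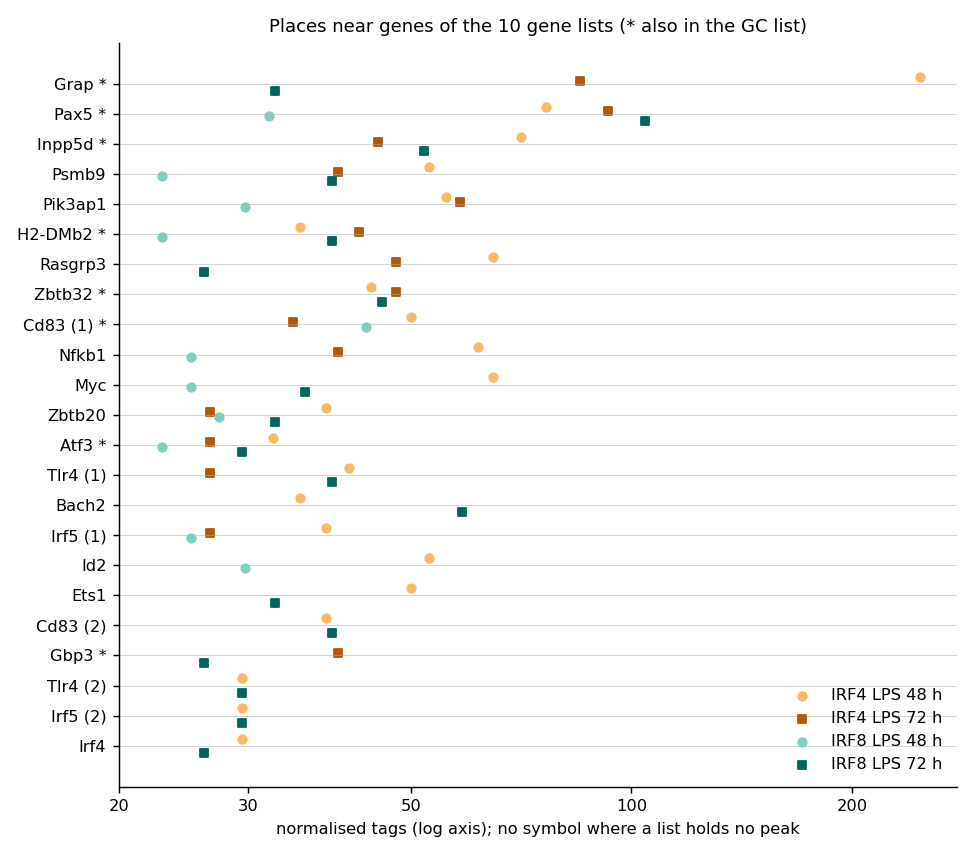
Normalised tags (log axis) in each LPS list at the places nearest to genes of the 10 gene lists, 1 row per place; a symbol is missing where that list holds no peak, and an asterisk marks places in the GC list. Values run from 22.9 to 247.3 tags, Grap and Pax5 are at the top, and IRF8 at 48 h is missing or at the low end in most rows.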

How the data were processed

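Per the file headers, the authors called the LPS peaks with findPeaks of HOMER in factor mode (500 bp peaks, false discovery rate 0.001, 4-fold over the local 10000 bp), and no input library is named there. The build is mm9 per the labels, and BWA and Bowtie2 stand in the submitters' processing notes; the design text names other aligners, so how reads of repeated sequence were placed is not settled. GC intervals come from MACS, per the design text. The deposited signal, the normalised tag count, is scaled to 10000000 tags; it was whole tags within 0.05 for 100% of placed peaks, which gave the Poisson intervals. The deposited scores, folds (ratios), p-values and focus ratios (fractions) of the authors were not tested; the GC file deposited by the authors holds positions only.

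Peaks off chromosomes 1 to 19 and X (11 and 12 in the earlier and later IRF4 list, 8 and 11 in those of IRF8) were left out. Each place took its features from its peak with the most tags. Classes were compared with Fisher's exact test in scipy 1.17.1 with Benjamini-Hochberg adjustment over 12 comparisons, threshold 0.05. The classification, the element search and the tests were tested on simulated data. Intervals cover counting error only, since tags are not independent molecules. Genes were those of GENCODE M1. Named were the 10 single-copy and 5 multi-copy places with the most tags, the 5 with the most tags in all 5 lists, 4 for each element, and those near genes of the lists; 1 of these places is not reported here. Members, gene lists and tests were chosen with earlier results of these data known. Alternatives covered the overlap, the tag threshold, culture times, windows, promoter width and repeated sequence.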

Additional observations from a re-analysis of the deposited data

Results flagged for a closer look

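At 30 of the 50 single-copy places held by all 4 LPS lists, IRF4 tags were lower and IRF8 tags higher at 72 h than at 48 h, and at none was the reverse seen. They are listed because the factors moved in opposite directions between the same times, a difference that was not tested, as each factor and time is 1 library. The share of tags in peaks also fell for IRF4 (0.82% at 48 h, 0.45% at 72 h) and rose for IRF8 (0.18%, 0.52%). From 48 h to 72 h the log2 tags moved by a median of -0.15 for IRF4 (quartiles -0.40 and 0.28) and 0.76 for IRF8 (quartiles 0.38 and 0.89). At the 27 multi-copy places of all 4 lists the medians were -0.03 and 0.37, 18 places moved as the 30 did, and 1 the other way round, so the same movement was seen there. IRF8 tags were higher at 72 h at 49 of the 50 single-copy places and IRF4 tags lower at 31, so the count follows mainly from where IRF4 was lower.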

How the results depend on the processing

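Of the alternatives, 73 values were counted as unchanged. They are differences that kept their direction and their side of the threshold, and some numbers of places. The number of places, 359 as reported, was 353 with an overlap of 250 bp, 313 with single-copy places and 249 with the 72 h lists alone, which were counted so. It was 206 with peaks at or above the pooled median and 117 with the 48 h lists alone. The other changes follow as differences in percentage points, places bound by both minus the other class. At or above the pooled median the differences from IRF8 alone were 6.40 for the EICE, -14.7 for the ISRE, 5.33 for the GC list, -7.58 for promoters and 5.19 for multi-copy sequence, and those from IRF4 alone -0.87 for the ISRE and -11.2 for the CT pair. With the 48 h lists alone those from IRF8 alone were 4.79 for the EICE, -8.45 for the ISRE, 5.54 for AP-1, 9.19 for the GC list, 0.996 for multi-copy sequence and 38.7 for the CT pair, and those from IRF4 alone -2.14 for the ISRE and -14.6 for the CT pair. With the 72 h lists alone they were 1.86 for promoters and 2.69 for multi-copy sequence against IRF8 alone, and -8.55 for the CT pair against IRF4 alone. Against single-factor places held at both times, the differences from IRF8 alone (28 places) were 4.30 for the EICE, -16.4 for the ISRE, 6.78 for AP-1, -11.4 for the GC list and 22.7 for the CT pair, and that from IRF4 alone 4.35 for the ISRE. The promoter difference from IRF4 alone was -4.65 with single-copy places, and the ISRE difference 2.69 over whole peaks. Fewer places entered most of these; the cause was not tested. The CT comparisons and their alternatives were chosen after seeing the data. No paired analysis was possible because each group held 1 library. Depth limits single places: the lists called peaks from 9 to 11 tags upward.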

Other observations

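Of the 33 promoter places bound by both factors, 10 held an ISRE core (30.3%) and 12 lay in the GC list (36.4%), against 8.64% and 27.9% of all 359 places, a subset read after the values were seen and with no test. The 10 were at Nmi, with 84.7 normalised tags summed over the LPS lists, Gbp7 with 65.1, Gbp3 with 65.9, Oas1b with 59.8, Parp9 with 56.0, Grn, Lgals8, Mpeg1, Phf11 and Gm4902. The Nmi sum is of 29.2 IRF4 and 55.5 IRF8 tags at 72 h alone, and the Gbp3 sum of 39.8 and 26.1. Of these genes only Gbp3 is in the list of interferon-induced genes counted above, so that count does not cover the others. The places at Phf11 and Gm4902 were multi-copy. Those at Nmi, Gbp7, Gbp3, Oas1b, Parp9 and Lgals8 lay in the GC list.

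At the starts of the assembled chromosomes, within the first 3.5 Mb, lay 13 of the 359 places (3.62%) and 15 of the single-factor places (0.641%). Of the 13, 8 were multi-copy, 10 were in all 4 LPS lists, 1 was in the GC list and 2 held an EICE, ISRE core or AP-1 site. The places near Vmn1r238 and Samd9l are among the single-copy ones.

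Of the genes with more than 1 place within 50 kb there were 16, each with 2 places. By summed tags they were led by Gm10715, with 874.4 normalised tags over its places, Limd1 with 482.1 and Sfi1 with 352.4.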
